A study of Homo sapiens with 12 samples.

Results

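The actin cytoskeleton genes described here are 44 genes chosen by name, from the actins themselves to the proteins that bind, cap, bundle and pull on actin filaments. Their probes were found through the RefSeq transcript each probe was designed for, and 43 of the 44 could be read in every group, out of 20239 genes read in the same way. HA22T and PLC5 are human hepatocellular carcinoma (HCC) cell lines. Each line received either a non-targeting siRNA (siControl) or a pool of siRNAs against GALNT1 (siGALNT1), at 10 nM for 48 h, and no other agent. GALNT1 is an enzyme of the Golgi that starts O-glycan chains on proteins. This gave 4 groups of 3 one-color arrays, HA22T siControl, HA22T siGALNT1, PLC5 siControl and PLC5 siGALNT1. Each line comes from a single tumor, and the knockdown was transient.

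Actin is present in cells as single molecules and as filaments that are built and taken apart all the time. Thymosins and profilins hold single actin molecules, cofilins and gelsolin-like proteins sever or cap filaments, and the Arp2/3 complex starts new branches. Alpha-actinins, filamins and fascin tie filaments into networks and bundles, tropomyosins coat them, and myosin II slides them past each other. Many of these genes are known targets of serum response factor (SRF), which binds a DNA element called the CArG box and is switched on through MRTF proteins when single actin molecules become scarce. In epithelial liver cells actin supports the canalicular membrane, and in migrating tumor cells it drives the leading edge.

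The CArG boxes in front of the members are shown because many actin genes are known SRF targets and several members differed between the lines in the same direction. RefSeq promoter windows, from 250 bases before the start to 50 after it (build GRCh38.p14), were at hand for 37 of the 44 members. None was at hand for ACTB, ARPC1B, FSCN1, MYL9, PFN2, TAGLN and VIL1. Of the 37, 6 held a CArG box (16.2%), against 1.6% of the 27305 genes with such a window. Counted by window, 6 of 65 member windows (9.23%) and 454 of all 35116 windows (1.29%) held one. The CArG pattern (CC, then 6 bases that are A or T, then GG) has the same form on both strands, so a search of 1 strand covers both. The 6 boxes follow on the strand of the gene with 10 bases on each side, the box in capitals.
ACTG1, chr17:81512874-81512903, minus strand, 94 bases before the start: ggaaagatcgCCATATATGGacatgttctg
ACTN1, chr14:68977718-68977747, minus strand, 171 bases before the start: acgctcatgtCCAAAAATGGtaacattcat
CNN2, chr19:1026509-1026538, plus strand, 89 bases before the start: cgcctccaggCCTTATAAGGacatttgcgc
FLNA, chrX:154374709-154374738, minus strand, 94 bases before the start: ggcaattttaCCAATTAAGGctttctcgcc
MYLK, chr3:123620623-123620652, minus strand, 94 bases before the start: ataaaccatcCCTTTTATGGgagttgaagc
TPM4, chr19:16067355-16067384, plus strand, 173 bases before the start: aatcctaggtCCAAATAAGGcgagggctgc
A match gives the letters only, and factor binding was not measured. Windows were taken by gene name, so a box need not lie before the start of the transcript that the read probe detects. MYLK had 1 window, and whether it belongs to the kinase transcript was not checked.

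Levels are given as log2 signal relative to the 75th percentile of the same array, so 0 is the brightness that 75% of the spots do not exceed. A difference of 1 is then 2-fold. A level is never set against that of another gene, because probes differ in brightness. The arrays had 36679 to 48873 of their 58717 spots well above background, replicates correlated at 0.968 to 0.988, and no spot was saturated. All 6 HA22T arrays and the PLC5 arrays of replicate 1 were on 1 slide, and PLC5 replicates 2 and 3 were on another. Among the members read on all 3 arrays of a group, PLC5 replicate 1 gave the highest value for 28 of 43 with siControl and 27 of 43 with siGALNT1. Slide and line therefore overlap in part, and values from the shared slide are given beside the line comparison. The labels number the arrays of a group without saying that they are separate cultures, so p-values measure the spread between these arrays. A lower signal in such bulk RNA can mean fewer cells with a transcript or less of it per cell, and these cannot be told apart.

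The targeted gene was lower in every siGALNT1 array. GALNT1 read 1.32, 0.75 and 0.85 in HA22T siControl and -3.15, -3.68 and -5.55 in HA22T siGALNT1, the last not well above background. In PLC5 it read 0.87, 0.37 and 0.61 with siControl and -1.93, -3.47 and -3.92 with siGALNT1. The groups did not overlap in either line. The log2 difference was -5.10 (SE 0.61, limma adjusted p = 0.0708) in HA22T and -3.72 (SE 0.61, limma adjusted p = 1) in PLC5, so this gene did not pass an adjusted p of 0.05 across all probes.

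The lines also differed in hepatocyte markers. Of 10 hepatocyte markers, 8 were lower in HA22T than in PLC5 with siControl by limma at an adjusted p below 0.05 and 0 were higher, with a median log2 difference of -4.49. The keratins KRT8 and KRT18 were well above background on all siControl arrays of both lines. So were the epithelial markers CLDN4 and GRHL2. CDH1 was well above background on 2 of 3 HA22T and 1 of 3 PLC5 siControl arrays, EPCAM on 1 and 0, and ESRP1 on 0 and 2. VIM, the mesenchymal intermediate filament, was higher in HA22T by 5.54, while FN1, of the same marker list, was lower by -3.60. Of 5 epithelial markers tested, 0 passed in either direction, of 7 mesenchymal and fibroblast markers 3 were higher in HA22T and 1 was lower, and of 5 smooth muscle markers 0 were higher and 1 was lower. Their part in the differences of the actin genes was not tested.

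The first question was how the actin genes differ between the 2 lines. With siControl, several genes for cross-linkers, the capping protein gene CAPG, the myosin kinase gene MYLK and the myosin heavy chain gene MYH9 were higher in HA22T, led by FLNC, MYLK, LIMA1, FSCN1, CAPG and ACTN1. VIL1, the villin of epithelial microvilli, was bright in PLC5 and not well above background in HA22T. Of 42 members tested, 14 were higher in HA22T (33.3%) and 2 were lower (4.76%) by limma at an adjusted p below 0.05. The background was 22% of 38011 probes, and among 17417 genes read by the same rule 26.6% passed, 14.2% higher and 12.4% lower. The median member difference was 0.46 on the log2 scale, beside 0.10 over all genes read, and 32 of 42 members had a positive difference (76.2%), beside 54.7% of genes read. On the slide that held both lines, 25 of 42 were positive (59.5%), and the median member difference was 0.27, beside 0.08 over all probes tested. Arrays of the lines that do not overlap were common in this comparison, at 47.4% of genes read.

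**Figure D1:**
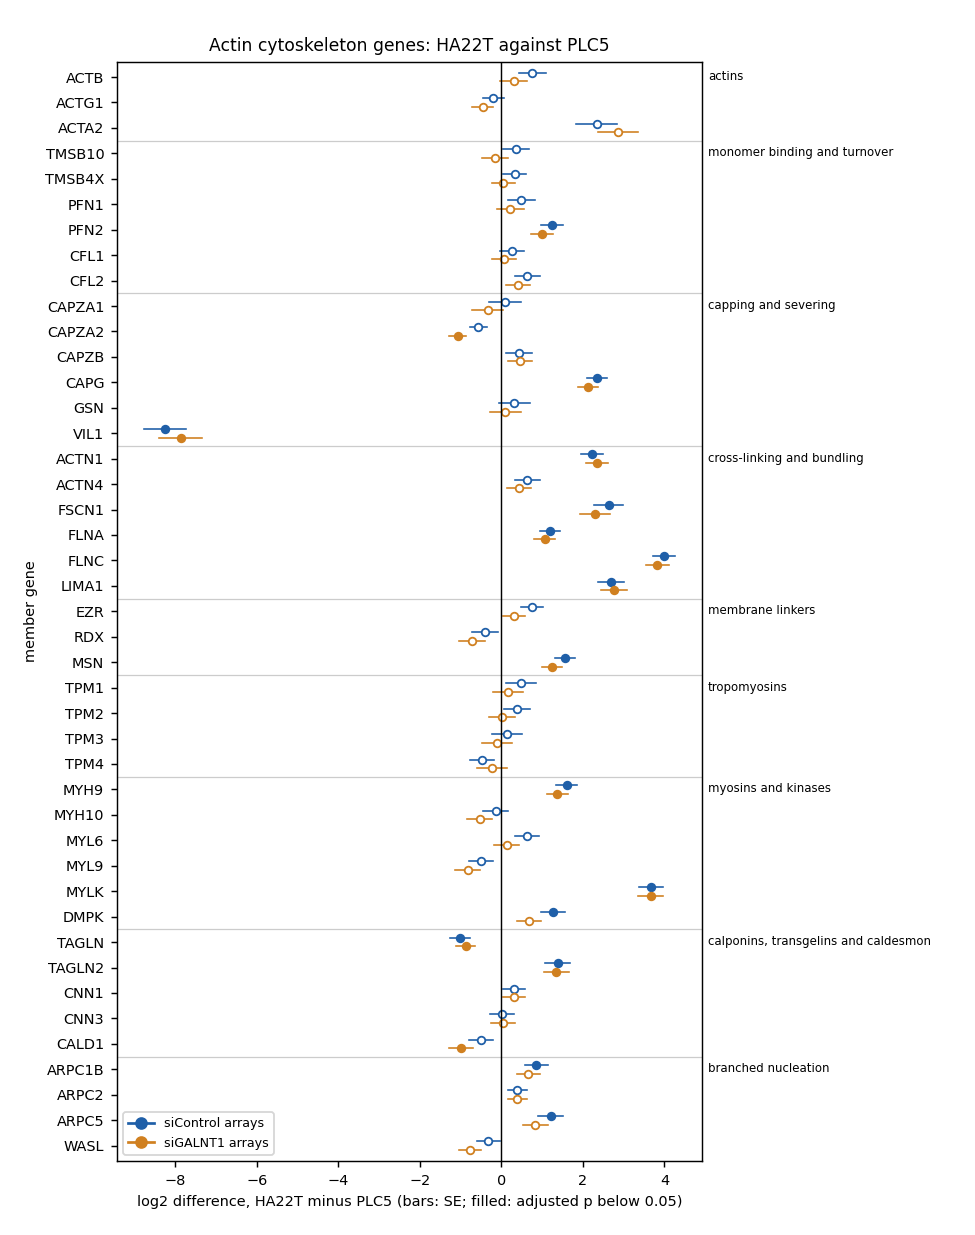
Log2 difference between HA22T and PLC5 (x axis, HA22T minus PLC5) for each of 43 members (y axis, grouped by role), from siControl arrays (blue) and siGALNT1 arrays (orange), with bars of 1 SE and filled points where the limma adjusted p was below 0.05. All 6 cross-linking and bundling genes lie to the right of 0, the 4 tropomyosins stay within 0.49 of it, and VIL1 lies far to the left. The VIL1 points are raw differences, not the bounds given in the text, and HA22T was not well above background.

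Cross-linking and bundling proteins had the highest share of called genes among the 9 role classes. Of 6 genes, 5 were higher in HA22T and 0 were lower, with a median log2 difference of 2.43 and a range of 0.64 to 3.99. FLNC, a filamin known mainly from muscle, read 6.37, 5.78 and 5.83 in HA22T siControl and 1.94, 2.03 and 2.03 in PLC5 siControl. The arrays of the lines were far apart, with a difference of 3.99 (SE 0.28, limma adjusted p = 2.12e-06), or 15.9-fold.

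LIMA1, which bundles filaments and slows their turnover, read 0.89, 1.06 and 0.95 in HA22T and -1.94, -1.49 and -1.72 in PLC5. The groups did not overlap, and the log2 difference was 2.68 (SE 0.32, limma adjusted p = 9.54e-05). FSCN1, the fascin of filopodia, read 4.14, 3.93 and 4.23 in HA22T and 1.38, 1.74 and 1.29 in PLC5, again without overlap. Its difference was 2.63 (SE 0.36, limma adjusted p = 0.000289). ACTN1, an alpha-actinin of stress fibers and adhesions, read 5.39, 5.19 and 5.50 in HA22T and 3.52, 2.98 and 2.93 in PLC5. Every HA22T array lay above every PLC5 array, with a difference of 2.22 (SE 0.27, limma adjusted p = 0.000117). FLNA, the widespread filamin whose promoter holds a CArG box, was higher by 1.20 (SE 0.25, limma adjusted p = 0.00482). ACTN4, the other non-muscle alpha-actinin, differed by 0.64 (SE 0.30) and did not pass the test.

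The capping and severing class held 1 gene that was higher in HA22T and 1 that was lower. CAPG, which caps filament ends without severing them, read 4.73, 3.96 and 4.28 in HA22T siControl and 1.93, 2.00 and 1.98 in PLC5 siControl. The lines did not overlap, and the log2 difference was 2.35 (SE 0.25, limma adjusted p = 4.04e-05). VIL1 read 0.52, 0.99 and 0.71 in PLC5 siControl, and -7.65, -8.22 and -6.67 in HA22T siControl, where 0 of 3 arrays were well above background. It was at least 78.5-fold lower in HA22T. The limma adjusted p of 1.03e-06 belongs to the raw log2 difference of -8.26, not to this bound. VIL1 passed the background filter through its PLC5 arrays alone. The subunits of the barbed-end capping protein, CAPZA1, CAPZA2 and CAPZB, had log2 differences of 0.08, -0.57 and 0.44, and none passed the test. GSN, the calcium-dependent severing protein gelsolin, differed by 0.32 and did not pass either.

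Among the myosins and kinases, 3 of 6 were higher in HA22T and 0 were lower. MYLK, the kinase that activates myosin II through its light chain, read 1.71, 1.76 and 1.47 in HA22T siControl and -1.64, -1.98 and -2.44 in PLC5 siControl. The gap between the lines was wide, with a difference of 3.67 (SE 0.30, limma adjusted p = 6.46e-06), or 12.7-fold. MYH9, the heavy chain of non-muscle myosin IIA, read 3.72, 2.98 and 3.48 in HA22T and 2.05, 1.54 and 1.79 in PLC5. These values did not overlap and differed by 1.60 (SE 0.26, limma adjusted p = 0.000895). DMPK, a kinase related to the ROCK kinases, read 1.86, 2.17 and 2.56 in HA22T and 1.13, 0.93 and 0.73 in PLC5. Its difference was 1.27 (SE 0.29, limma adjusted p = 0.00823), without overlap. MYH10, the heavy chain of myosin IIB, and the light chains MYL6 and MYL9 had differences of -0.14, 0.63 and -0.50, and none passed.

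Of the 3 membrane linkers, which tie actin to the plasma membrane, MSN alone passed the test. It read 3.54, 3.58 and 3.49 in HA22T siControl and 2.11, 1.75 and 2.07 in PLC5 siControl. The replicates were tight and did not overlap, and the log2 difference was 1.56 (SE 0.24, limma adjusted p = 0.000589). EZR, the linker typical of epithelia, differed by 0.74 (limma adjusted p = 0.0777), and RDX by -0.41 (limma adjusted p = 0.42).

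Proteins of the actin monomer showed smaller differences. Over all arrays the 6 genes had log2 differences from 0.26 to 1.23, and 1 passed the test. On the slide with both lines 3 of the 6 were positive, and TMSB10, PFN1 and CFL1 lay at -0.06, -0.07 and -0.14. PFN2, the less widespread profilin, read 1.14, 1.40 and 1.43 in HA22T siControl and 0.12, -0.05 and 0.19 in PLC5 siControl. Its arrays did not overlap, with a difference of 1.23 (SE 0.27, limma adjusted p = 0.00649). PFN1, the common profilin, differed by 0.49, and the thymosins TMSB10 and TMSB4X, which sequester actin, by 0.35 and 0.33.

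In the class of calponins, transgelins and caldesmon, the transgelins differed in opposite directions. TAGLN2 read 6.05, 5.46 and 6.08 in HA22T siControl and 4.96, 4.24 and 4.23 in PLC5 siControl, and was higher in HA22T by 1.38 (SE 0.31, limma adjusted p = 0.00809). TAGLN, the smooth muscle transgelin SM22, read -0.38, -0.17 and 0.01 in HA22T and 0.81, 0.82 and 0.90 in PLC5. It was lower in HA22T by a log2 difference of -1.02 (SE 0.24, limma adjusted p = 0.0101), and neither gene's groups overlapped. The calponins CNN1 and CNN3 and the caldesmon gene CALD1 had differences of 0.30, 0.01 and -0.50 and did not pass. CNN2 had a single probe, flagged as non-uniform on all 3 HA22T siControl arrays and on 1 HA22T siGALNT1 array, so it has no comparison here. In PLC5 it read 3.29, 3.17 and 2.40 with siControl and 2.89, 3.15 and 2.48 with siGALNT1, which overlap.

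Of the 4 genes for branched nucleation, 2 were higher in HA22T, both subunits of the Arp2/3 complex. ARPC5 read 2.96, 3.28 and 3.45 in HA22T siControl and 2.38, 1.79 and 1.87 in PLC5 siControl. The arrays did not overlap, and the log2 difference was 1.21 (SE 0.31, limma adjusted p = 0.0159). ARPC1B read 4.14, 3.31 and 3.85 in HA22T and 3.29, 2.64 and 2.81 in PLC5, the closest pair of arrays being 0.02 apart. It lay just inside the threshold with a difference of 0.86 (SE 0.28, limma adjusted p = 0.0496), and 18 of 27 alternatives left it above 0.05. ARPC2 differed by 0.39 and WASL, the N-WASP that switches the complex on, by -0.32, without passing.

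The actins and tropomyosins did not differ by this test. ACTB, the beta-actin often used as a loading reference, read 8.30, 7.57 and 7.85 in HA22T siControl and 7.64, 6.81 and 7.00 in PLC5 siControl. The groups overlapped, and the log2 difference was 0.76 (SE 0.33, limma adjusted p = 0.14). ACTG1, the gamma-actin whose sequence is close to that of ACTB, differed by -0.20 (limma adjusted p = 0.656). Signal shared between probes of such close relatives cannot be separated here. ACTA2, the actin of smooth muscle and myofibroblasts, was well above background on 2 of 3 arrays in each HA22T group and 0 of 3 in each PLC5 group. It was therefore not tested, and its signal was at least 2.02-fold higher in HA22T with siControl and at least 2.23-fold higher with siGALNT1. The tropomyosins TPM1, TPM2, TPM3 and TPM4 had differences of 0.49, 0.39, 0.14 and -0.47, and 0 of 4 passed. For TPM4, which has a CArG box, the read probe had a value on 2 HA22T siControl arrays and 1 HA22T siGALNT1 array.

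**Figure D2:**
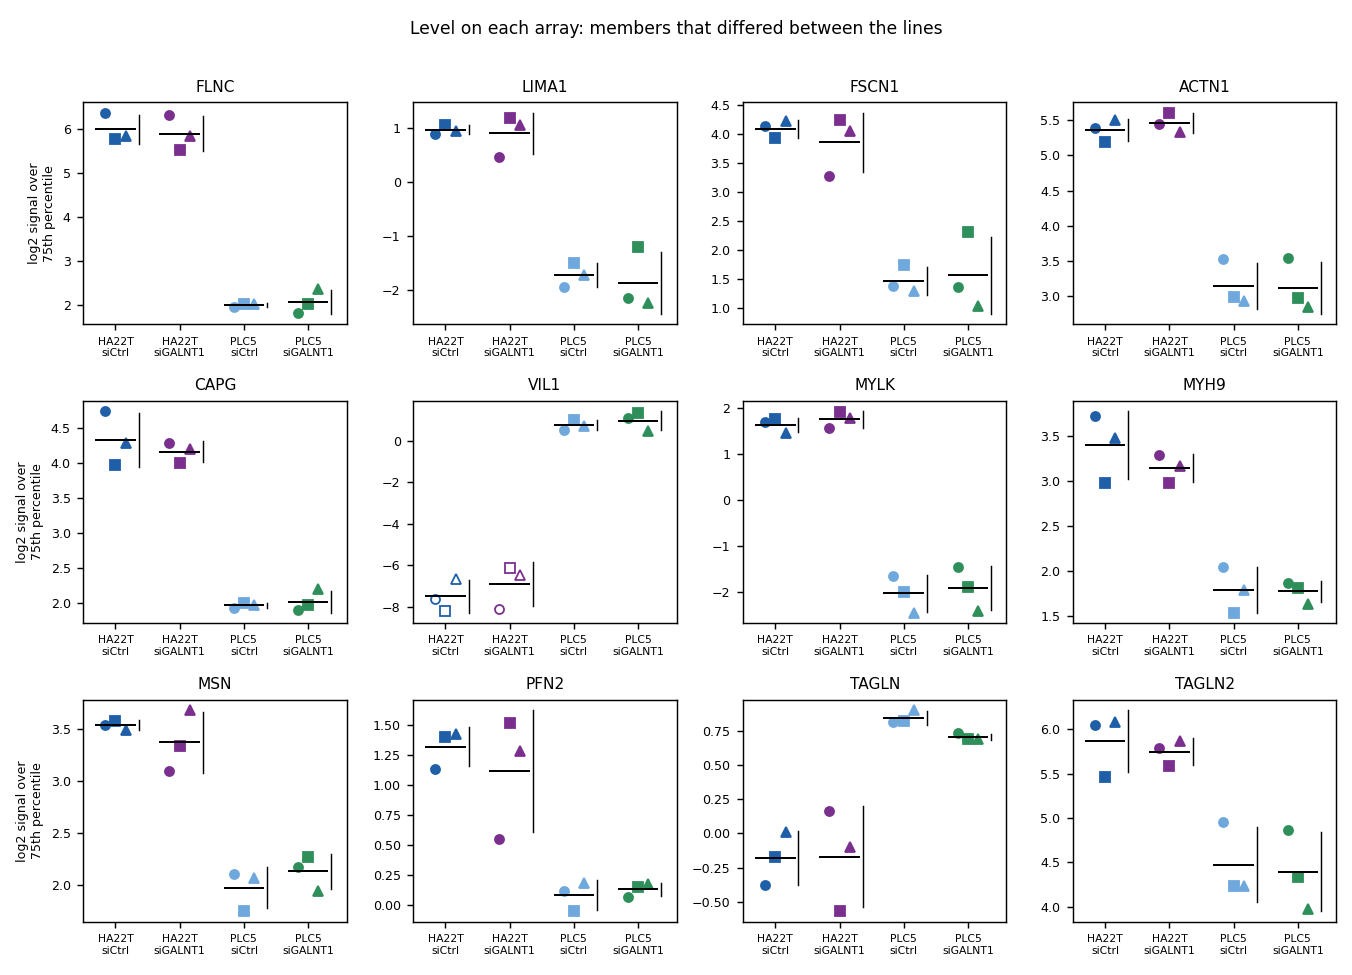
Level on each array (y axis, log2 signal over the 75th percentile of the array, with its own scale in every panel) for 12 members in the 4 groups (x axis). Circles, squares and triangles are replicates 1, 2 and 3, horizontal lines are means, vertical lines are 1 SD, and open symbols are arrays not well above background. In the panels for FLNC, MYLK and CAPG the groups split by line and the siRNA groups of a line lie side by side.

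The line comparison was repeated in the siGALNT1 arrays, which are other arrays of the same lines. There, 11 of 42 members were higher in HA22T and 4 were lower by limma at an adjusted p below 0.05, with a background of 22.9% of 36741 probes and 26.6% of 17201 genes read, 11.6% higher and 15% lower. The sets share 13 members in the same direction, which is 81.2% of the calls with siControl and 86.7% of those with siGALNT1. The shared part over all genes read was not computed, so this overlap cannot be called particular to the actin genes. Both comparisons also use the same fitted spread and the same slides, so they are not independent. The 11 shared higher genes are PFN2, CAPG, ACTN1, FSCN1, FLNA, FLNC, LIMA1, MSN, MYH9, MYLK and TAGLN2, and the 2 shared lower ones are VIL1 and TAGLN. In both sets VIL1 passed the background filter through PLC5 arrays alone.

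Several of the larger differences had a similar size in both sets of arrays. FLNC differed by 3.99 and 3.83 on the log2 scale, MYLK by 3.67 and 3.66, LIMA1 by 2.68 and 2.77, FSCN1 by 2.63 and 2.30, CAPG by 2.35 and 2.13, and ACTN1 by 2.22 and 2.34, with siControl and siGALNT1 respectively. VIL1 was at least 61.4-fold lower in HA22T with siGALNT1. DMPK differed by 0.67, ARPC5 by 0.83 and ARPC1B by 0.66 in the siGALNT1 arrays, with limma adjusted p of 0.12, 0.0791 and 0.115. CAPZA2 and CALD1 passed in the siGALNT1 arrays alone, lower in HA22T by -1.07 and -0.99 (limma adjusted p = 0.00322 and 0.035). Whether the line difference itself changed with the siRNA is the test of the siRNA effect by line, which no member passed.

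The count of calls and the direction of smaller differences changed in comparisons that took the slide into account. On the shared slide alone, the slide cannot be told apart from the smaller number of PLC5 arrays. Restricted to the slide with both lines, with 1 PLC5 array a group, limma called 7 members with each siRNA (CAPG, ACTN1, FSCN1, FLNC, LIMA1 and MYLK higher, VIL1 lower), beside 8.31% of probes with siControl and 8.6% with siGALNT1. With the slide as a block, 12 members were called with siControl and 11 with siGALNT1, beside 17.4% and 19.9% of probes. The median member difference with siGALNT1 was then 0.00, beside 0.08 over all probes tested. ARPC1B and TAGLN2 had differences of 0.48 and 0.90 with siControl on the shared slide, beside 0.86 and 1.38 over all arrays. Of the 42 members tested, 7 changed sign on the shared slide with siControl (TMSB10, PFN1, CFL1, TPM2, TPM3, CNN1 and CNN3) and 8 with siGALNT1 (ACTB, PFN1, CFL1, CAPZA1, TPM1, TPM2, MYL6 and CNN3), and none of these had passed the test over all arrays. All 6 cross-linking and bundling genes stayed positive with both siRNAs.

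Several members have more than 1 probe. Of 19 such members tested, all probes had the same direction in 16 (the exceptions were ARPC2, CFL1 and TPM3, of which none passed), but the sizes differ. The dimmer probe of FLNC gave a log2 difference of 9.00, that of CAPG 6.70, that of FLNA 2.14 and that of TAGLN -2.19. The other probes of MYLK gave 4.31 and 4.44. For CAPZA1 and TPM4 the dimmer probe passed the test where the read one did not, with 0.92 (limma adjusted p = 0.0232) and -0.94 (limma adjusted p = 0.0269).

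Other actin regulators were counted from a list of 60 genes outside the members. Of 57 tested with siControl, 19 were higher in HA22T (33.3%) and 8 were lower (14%), beside 14.2% and 12.4% of genes read. The median log2 difference was 0.40, beside 0.10 over all genes read. The genes of this list named here were chosen after their values were seen. LIMK1, the kinase that turns cofilin off, was higher by 2.67 (SE 0.30, limma adjusted p = 7.17e-05). LCP1, the plastin of blood cells and many tumors, was lower by -5.35 (SE 0.37, limma adjusted p = 1.78e-06). Of 13 tested genes for SRF, the MRTF proteins and further targets, 4 were higher (30.8%) and 0 lower, beside the same shares of genes read. The 4 were CCN1, FHL2, CCN2 and VCL, with differences of 5.39, 3.80, 2.48 and 1.49. SRF itself differed by 0.70 (limma adjusted p = 0.223), MRTFA by -0.24 and MRTFB by -0.80, and none passed. Among members with a CArG box, ACTN1, FLNA and MYLK were higher in HA22T, ACTG1 and TPM4 did not pass, and CNN2 had no value.

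The second question was whether the siRNA changed the actin genes. In HA22T no member passed an adjusted p of 0.05, and TMSB10, CAPZA2 and DMPK were past the study's own criterion of a fold change of at least 1.5 with an unadjusted p below 0.05, all lower with siGALNT1. The study lists these 3 genes from the same arrays, and the members were chosen with earlier results known. Their count, also beside the share over all genes, is therefore not independent evidence of a change or of a direction. By limma, 0 of 42 members had an adjusted p below 0.05, beside 0.00275% of 36327 probes (a single probe). At an unadjusted p below 0.05 there were 3 of 42, beside 2.64% of genes read, and the methods' t-test with Benjamini-Hochberg adjustment gave 0. Past the study's criterion were 3 of 42 (7.14%), against 2.87% of all probes and 2.52% of 16967 genes read, or 1.05% of those genes when only lower ones are counted.

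TMSB10, thymosin beta-10, a small protein that holds actin monomers, read 7.15, 6.63 and 6.86 in HA22T siControl and 5.75, 6.39 and 6.24 in HA22T siGALNT1. The groups did not overlap, and the log2 difference was -0.76 (SE 0.32, 95% interval -1.46 to -0.05, limma adjusted p = 0.9996), or 1.69-fold lower. An exact two-sided permutation test of the 3 against 3 arrays gave p = 0.1, the smallest that this design allows, for this gene and for CAPZA2 and DMPK.

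CAPZA2, an alpha subunit of the capping protein, read -0.66, -0.96 and -0.81 with siControl and -1.39, -1.41 and -1.41 with siGALNT1. The siGALNT1 values lay close together below all siControl values, with a difference of -0.59 (SE 0.21, 95% interval -1.05 to -0.14, limma adjusted p = 0.9996). Its other probe gave -0.46. DMPK read 1.86, 2.17 and 2.56 with siControl and 1.58, 1.37 and 1.42 with siGALNT1. It did not overlap either and differed by -0.74 (SE 0.29, 95% interval -1.38 to -0.11, limma adjusted p = 0.9996). ACTB read 8.30, 7.57 and 7.85 with siControl and 7.39, 7.77 and 7.61 with siGALNT1, which overlap, and differed by -0.32 (95% interval -1.05 to 0.42).

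**Figure D3:**
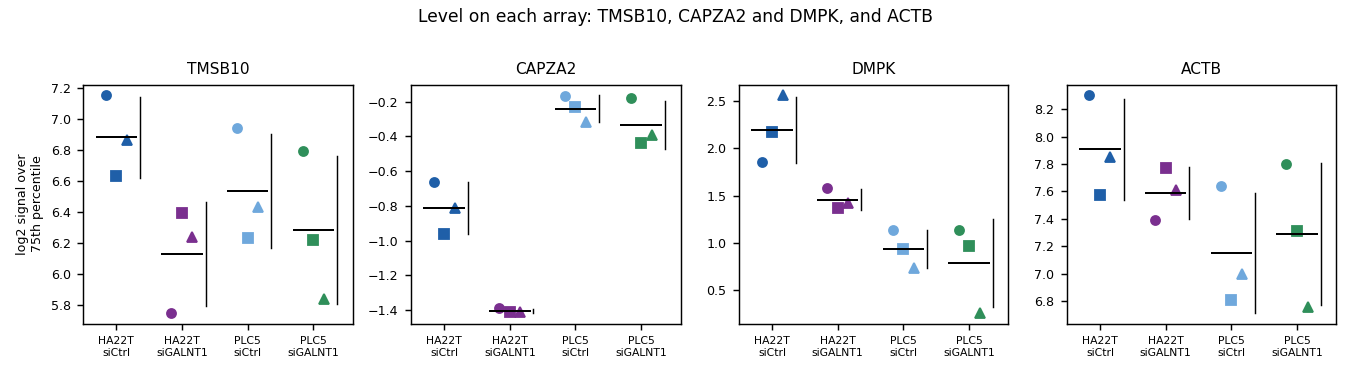
Level on each array (y axis, log2 signal over the 75th percentile of the array) of TMSB10, CAPZA2, DMPK and ACTB in the 4 groups (x axis), with circles, squares and triangles for replicates 1, 2 and 3, horizontal lines for means and vertical lines for 1 SD. In HA22T the siGALNT1 arrays of TMSB10, CAPZA2 and DMPK lie below all siControl arrays, whereas those of ACTB overlap, and in PLC5 all 4 genes overlap.

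These 3 counts rest on few arrays and on the scaling. Leaving out HA22T siControl replicate 1 kept DMPK alone past the criterion, and leaving out HA22T siControl replicate 3 or HA22T siGALNT1 replicate 3 kept CAPZA2 alone. When the 75th percentile was taken over unflagged spots, the differences were -0.63, -0.47 and -0.62 and 0 members passed, and this scaling moved the median of all tested probes from -0.06 to 0.06. Relative to that median TMSB10, CAPZA2 and DMPK lay at -0.70, -0.53 and -0.68 with the first scaling and at -0.69, -0.53 and -0.68 with the second.

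Most other members lay slightly below 0 in HA22T, as did most genes on the arrays. Of 42 members 33 had a log2 difference below 0 (78.6%), beside 63.5% of 16967 genes read, with medians of -0.17 and -0.10. In 39 of 42 the size of the difference was under 0.5. None of the cross-linkers that marked the line comparison passed the criterion, with FLNC at -0.10, LIMA1 at -0.06, ACTN1 at 0.10 and FLNA at 0.00. In 6 members the siRNA groups did not overlap (TMSB10, CAPZA1, CAPZA2, RDX, TPM4 and DMPK), beside 11.9% of genes read, and CAPZA1 and TPM4 had values missing on some arrays. Of 56 other actin regulators tested, 45 were below 0 and 0 passed the criterion.

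In PLC5 no actin gene met the study's criterion. By limma 0 of 42 members passed an adjusted p of 0.05, 0 had an unadjusted p below 0.05 (0.797% of genes read did), and 0 were past the study's criterion, beside 1.29% of 38070 probes (0% at the adjusted threshold) and 0.762% of 17316 genes read. The methods' t-test also gave 0 by either rule. The median difference was 0.07 on the log2 scale, beside 0.04 over all genes read, and differences ranged from -0.25 to 0.26.

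The members named in HA22T overlapped between the PLC5 groups. TMSB10 read 6.94, 6.23 and 6.43 with siControl and 6.79, 6.22 and 5.84 with siGALNT1 in PLC5, a difference of -0.25 (95% interval -0.95 to 0.45). CAPZA2 read -0.17, -0.23 and -0.32 with siControl and -0.18, -0.44 and -0.39 with siGALNT1, a difference of -0.10 (95% interval -0.55 to 0.36). DMPK read 1.13, 0.93 and 0.73 with siControl and 1.13, 0.97 and 0.26 with siGALNT1, a difference of -0.15 (95% interval -0.78 to 0.49). The intervals include both 0 and the differences measured in HA22T for TMSB10 and DMPK. TAGLN was the 1 of 42 members tested whose PLC5 siRNA groups did not overlap, beside 4.68% of genes read, at -0.14. Its other probe went the opposite way, at 0.25 (SE 0.27).

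**Figure D4:**
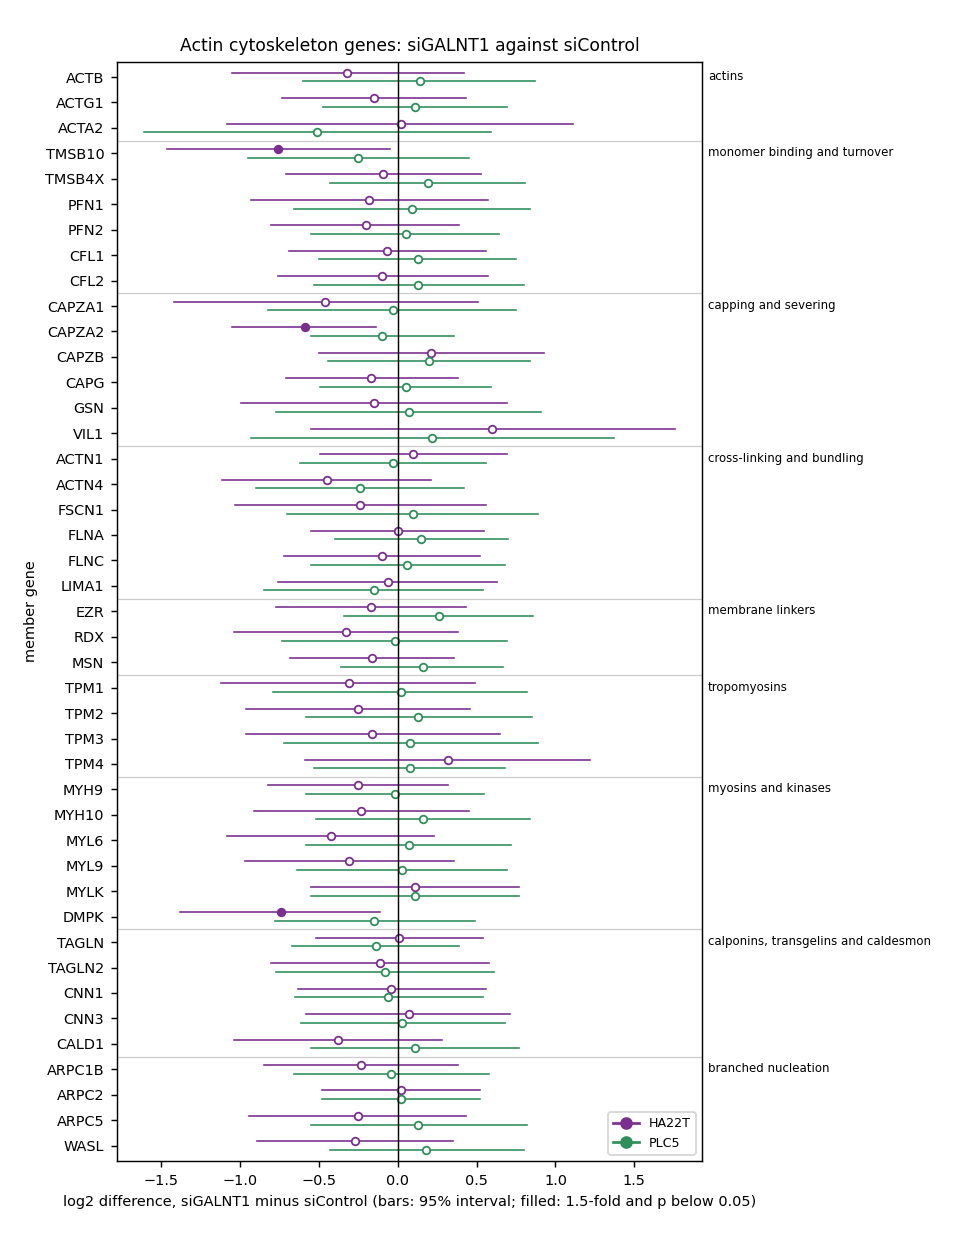
Log2 difference between siGALNT1 and siControl (x axis, siGALNT1 minus siControl) for each of 43 members (y axis, grouped by role) in HA22T (purple) and PLC5 (green), with bars of the 95% interval and filled points for a fold change of at least 1.5 with an unadjusted p below 0.05. TMSB10, CAPZA2 and DMPK in HA22T are the filled points, and the intervals of all PLC5 members tested hold 0.

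The third question was whether the siRNA effect differed between the lines. By limma 0 of 43 members passed an adjusted p of 0.05 for this difference and 0 had an unadjusted p below 0.05, beside 0% of 39100 probes at the adjusted threshold and 2.43% at the unadjusted one. The difference between the effects (HA22T minus PLC5) was -0.51 (SE 0.45) for TMSB10, -0.50 (SE 0.29) for CAPZA2 and -0.60 (SE 0.41) for DMPK, each with a limma adjusted p of 0.988. A siRNA effect particular to HA22T was therefore not shown for these genes. The half-width of the 95% interval of a siRNA difference within a line had a median of 0.66 over the members in HA22T and 0.65 in PLC5. The interval held 0 for 39 of 42 members in HA22T and 42 of 42 in PLC5. This width is not a detection limit at the adjusted threshold, which GALNT1 itself missed at -5.10 in HA22T (limma adjusted p = 0.0708).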

How the data were processed

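RNA of 12 samples, labelled by line and siRNA, was hybridized to one-color Agilent SurePrint G3 arrays. The authors scanned them and used Feature Extraction 10.5.1.1 (per the labels), and deposited spot intensity values after background subtraction. The log2 values that the authors deposited, which lie at about 0 at the 75th percentile of each array, were an alternative. Here log2 intensity minus that percentile over all non-control spots was computed, without control and non-uniform spots, and repeated spots of 1 probe were averaged. Probes were named through RefSeq accessions (GRCh38.p14), and 28174 of 50599 matched. A member was read from its brightest probe with a value in every group. The 12 arrays were fitted together with limma 3.58.1 in R 4.3.3, without covariates. Tested were probes that passed the background flag on 3 or more of the 6 arrays compared, with Benjamini-Hochberg adjustment over them. Where every array of a group was not well above background, a bound is given from the dimmest probe signal that was. The fit was tested on simulated data. Members, lists and tests were chosen with earlier results of these data known. Named with array values are members with an adjusted p below 0.05 between lines with siControl (at most 4 a class), those past the study's criterion, ACTB, TMSB10, CAPZA2 and DMPK. GALNT1 and CNN2 were added.

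Same-numbered HA22T siControl and siGALNT1 arrays deviated together (correlations 0.55, 0.403 and 0.43, over 22282 probes). This comes from the values, not from the labels. The main fit did not pair arrays, and the replicate block, an alternative, used the numbers as pairs. Files held no mean spot signal, so normexp (offset 50) used the median. The alternatives were normexp, quantile and median scaling, the deposited table, 2 other filters on dim probes, non-uniform spots kept, slide or replicate blocks, a single slide, an intensity trend in eBayes, the mean over probes of a gene, each array left out, and the methods' t-test. Added after seeing the data were the percentile over unflagged spots and the PLC5 arrays of the second slide alone.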

Additional observations from a re-analysis of the deposited data

How the results depend on the processing

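For 15 of the 16 members called between the lines with siControl, 372 of 405 alternatives left the difference at an adjusted p below 0.05. The other 33 did not, most often for ARPC1B, and 0 reversed the direction. For VIL1 the 1 such alternative gave no adjusted p, so it did not take the difference above 0.05. Among members that were not called, 7 changed sign with siControl and 8 with siGALNT1 on the slide with both lines. With siControl the count of members called was 16, and it was 7 on the slide with both lines alone, where PLC5 has 1 array a group and its spread is borrowed from the other groups. With siGALNT1 it was 15, and it was 7 on that slide and 9 by the methods' t-test. Leaving out 1 array at a time gave 14 to 16 members with siControl and 12 to 16 with siGALNT1. In HA22T, 3 members were past the study's criterion, 1 to 3 with 1 array left out, and 0 with the percentile over unflagged spots. With the replicate block, the counts stayed at 16 and 15 between lines and at 3 and 0 for the criterion in HA22T and PLC5. The block paired arrays by number within each line for the siRNA comparisons, and used the same numbers across lines for the line comparisons. In PLC5 same-numbered arrays had correlations of 0.706, -0.023 and 0.164, and the block paired them as well. Counts at an adjusted p below 0.05 for the siRNA, and for its difference between lines, were 0 under all alternatives run. The number of arrays, 3 a group, limits the precision.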
